A study of Mus musculus with 8 samples.

Results

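Nr1d1, Nr1d2, Rora, Dbp, Tef, Hlf, Nfil3, Bhlhe40 and Bhlhe41 form the second layer of the mammalian circadian clock. They were chosen by name as the nuclear receptors, the PAR bZIP transcription factors and their antagonists, and the Bhlhe40/Bhlhe41 repressors, and are 9 genes beside the 15960 gene symbols in the deposited table. Of the 9, 8 had a row in it and all 8 passed the filter on low counts; Bhlhe41 was not analysed here. RNA was measured by bulk sequencing in 4 BHLKO and 4 Alb-Cre libraries of whole lung, from mice of the C57BL/6 strain aged 3 to 5 months. BHLKO mice carry Alb-Cre with both copies of Hif1a and of Bmal1 (listed as Arntl) floxed. Alb-Cre mice carry the same Cre driver with no floxed allele given, so Cre is shared by both groups. The driver is the albumin promoter, active in hepatocytes, so the deletion is directed to the liver, and no liver values are used here. All mice were kept for 2 weeks in 12 h light and 12 h dark with free access to food, with the lights kept off on the last day, and every library is labelled circadian time 16, in the subjective night. With a single time point, a shift in the phase of a rhythm cannot be told apart from a change in its mean level. In whole tissue, fewer cells of a type and less RNA per cell cannot be told apart either.

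In the clock, CLOCK and BMAL1 activate genes through E boxes, among them the REV-ERB nuclear receptor genes Nr1d1 and Nr1d2 and the PAR bZIP gene Dbp. REV-ERB proteins recruit the NCOR and HDAC3 corepressors to ROR response elements and compete there with the activator RORA, and Arntl itself is a target of both. DBP, TEF and HLF activate genes with D boxes and NFIL3 represses at the same elements, while BHLHE40 and BHLHE41 repress at E boxes. In lung, REV-ERB-alpha is known for restraining inflammatory gene expression.

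None of the 8 measured genes passed the test between BHLKO and Alb-Cre lung. With edgeR's quasi-likelihood test and a Benjamini-Hochberg adjusted p under 0.05 as the threshold, 0 of 8 were called, against 2.26% of the 13517 genes tested (1.04% higher and 1.23% lower in BHLKO). DESeq2 and limma-voom also called 0 of 8, where they called 5.14% and 1.78% of all genes. At an unadjusted edgeR p under 0.05 there was 1 gene, Bhlhe40, against 16.1% of all genes. The values of the 2 groups overlapped in all 8, whereas they did not overlap in 9.62% of all genes tested. The median log2 fold change of the 8 was 0.21, with 6 above 0 and 2 below 0, and the median of all tested genes was −0.0017.

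**Figure D1:**
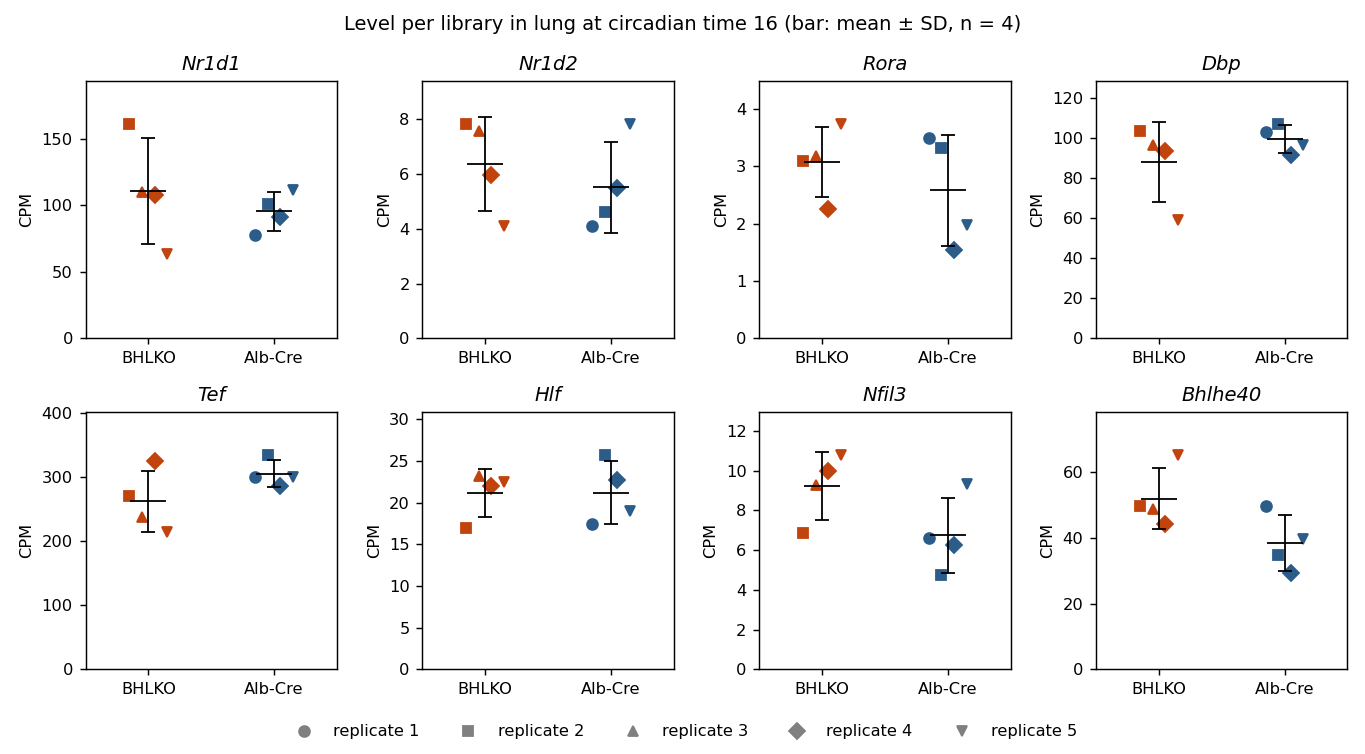
CPM (counts per 1e6 of the scaled library total, y axis from 0) of the 8 measured genes in each lung library, BHLKO left and Alb-Cre right, with replicate numbers as symbols and the mean ± SD (n = 4 each). The groups overlap in every panel, and BHLKO replicate 5 is the lowest of the 8 libraries for Nr1d1 (63.5 CPM), Dbp (59.1 CPM) and Tef (214.6 CPM).

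Total counts ran from 6838427 to 15430372 per library, and the labels do not say that each library came from a separate animal, so each p-value reflects only differences among these libraries, which may be technical. All 8 lung epithelial markers, among them Sftpc, Sftpb, Scgb1a1 and Ager, were read in all libraries, and their summed level was 82962 to 89681 CPM in BHLKO and 85730 to 96326 CPM in Alb-Cre. Of the 8, 0 rose, 1 fell and 7 did not pass. The marker that fell was Nkx2-1, a transcription factor of lung epithelium, at 67.7, 54.3, 63.8 and 56.7 CPM in BHLKO replicates 2, 3, 4 and 5, against 210.7, 195.4, 201.5 and 186.1 CPM in Alb-Cre replicates 1, 2, 4 and 5. This was 0.306-fold without overlap (log2 −1.71 ± 0.10; edgeR adjusted p = 3.91e-08), and its part in the clock gene values was not tested. The 4 fibroblast and smooth muscle markers summed to 362 to 461 CPM in BHLKO and 278 to 334 CPM in Alb-Cre. All 4 were above 0 in log2 fold change, and edgeR called Pdgfra alone (log2 0.48 ± 0.10, adjusted p = 0.0178). The Pdgfra call was lost without BHLKO replicate 2, 4 or 5 or Alb-Cre replicate 1 or 4 (edgeR adjusted p up to 0.0690). The part of these markers in the clock gene values was not tested. The floxed genes showed no difference past the test in lung, where the Cre driver is not directed. Arntl had 5.62, 7.57, 6.07 and 11.1 CPM in BHLKO replicates 2, 3, 4 and 5, against 6.02, 5.93, 8.58 and 5.63 CPM in Alb-Cre replicates 1, 2, 4 and 5 (edgeR adjusted p = 0.726). Hif1a averaged 13.5 ± 1.38 CPM in BHLKO and 12.8 ± 1.95 CPM in Alb-Cre (SD, n = 4 each; edgeR adjusted p = 0.853). A count summed over the gene can stay level after loss of the floxed exons, and the genotype labels are therefore not checked by it.

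Scaled to length, the 8 genes spanned a wide range of levels. CPM was divided by the merged exon length of each gene in GENCODE M21, which annotates the mm10 build, and the median over the 8 libraries was 37.3 CPM per kb for Tef, 34.0 for Nr1d1 and 32.4 for Dbp. The library ranges of neighbouring genes in this leading trio overlapped. Bhlhe40 followed at 9.88 CPM per kb, with no overlap with Dbp above it. Nfil3 (3.98 CPM per kb) and Hlf (3.33 CPM per kb) overlapped each other and neither overlapped the gene on its other side. Nr1d2 was at 1.06 CPM per kb, and Rora was lowest at 0.24 CPM per kb, again without overlap. The long merged exon model of Rora (13071 bp, against 2993 bp for Dbp) lowers its value on this scale if lung uses shorter transcripts. The 2 REV-ERB genes were thus unequal in read level at this single time point. Without scaling to length, there were 14.5 to 20.6 reads of Nr1d1 per read of Nr1d2 in BHLKO libraries and 14.3 to 21.9 in Alb-Cre libraries. The rule for multiply mapped reads is not given in the sources used here. Differences in level between genes may therefore come in part from the counting.

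**Figure D2:**
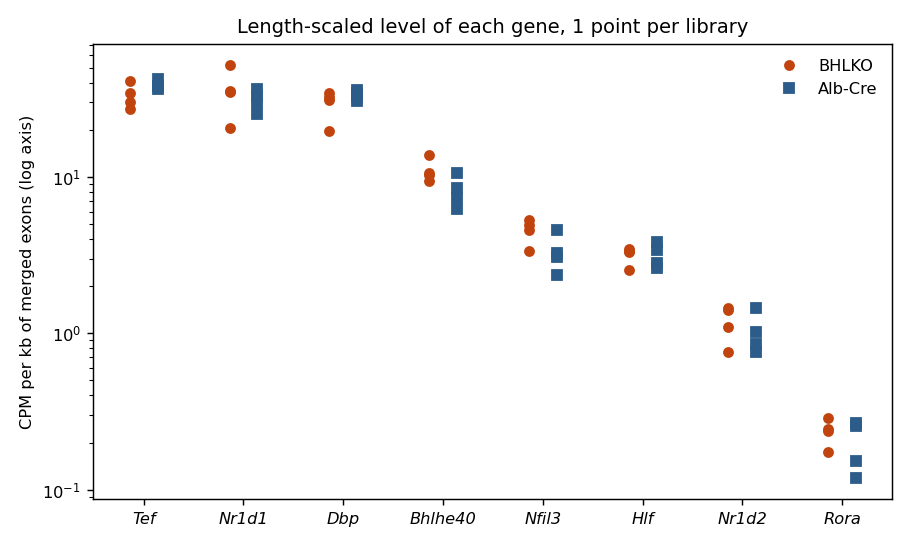
Length-scaled level (CPM per kb of merged exons, log axis) of each gene in every library, BHLKO circles left and Alb-Cre squares right, ordered by the median over 8 libraries. Tef, Nr1d1 and Dbp share the top, between 19.8 and 52.4 CPM per kb, and Rora is lowest, between 0.12 and 0.29 CPM per kb.

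Nr1d1 (chromosome 11, 98767932 to 98775333, minus strand) and Nr1d2 (chromosome 14, 18204054 to 18239127, minus strand) encode REV-ERB-alpha and REV-ERB-beta. Their promoters, from 250 bases before to 50 after the annotated start in RefSeq (GRCm38.p6), are shown because the 2 genes varied together between libraries. The capitals mark CACGTT, an E-box variant, in Nr1d1 (read as AACGTG on this strand, 22 bases before the start; chr11:98775328-98775627) and AGGTCA, the core of the ROR response element, in Nr1d2 (71 bases before the start; chr14:18239057-18239356).
Nr1d1: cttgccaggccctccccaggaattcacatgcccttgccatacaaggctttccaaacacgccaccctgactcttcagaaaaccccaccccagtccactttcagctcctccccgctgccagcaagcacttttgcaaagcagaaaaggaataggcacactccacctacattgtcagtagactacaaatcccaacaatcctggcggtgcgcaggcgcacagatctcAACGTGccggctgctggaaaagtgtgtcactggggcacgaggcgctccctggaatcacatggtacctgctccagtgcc
Nr1d2: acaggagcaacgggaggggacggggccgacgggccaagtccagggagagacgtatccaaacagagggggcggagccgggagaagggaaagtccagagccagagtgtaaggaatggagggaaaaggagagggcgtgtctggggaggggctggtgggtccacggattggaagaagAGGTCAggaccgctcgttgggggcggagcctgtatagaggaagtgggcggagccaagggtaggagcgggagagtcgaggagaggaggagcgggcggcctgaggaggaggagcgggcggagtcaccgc
Both strands of 32851 promoter windows of the same length were searched. The E box CACGTG was in 7.15% of them, its variant CACGTT in 4.68% and the element core AGGTCA in 16.3%. The D-box letters TTATGTAA were in 0.938% and TTACGTAA in 0.119%. RefSeq entries were matched by symbol for 8 of the 9 genes, without Bhlhe40, and each entry held at most 1 match. Of these 9 entries, 3 held CACGTG (Bhlhe41 and both Tef starts), 1 held CACGTT and 2 held AGGTCA. The D-box letters TTATGTAA and TTACGTAA were each in 0 of them. Such a match describes letters and does not show binding.

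Nr1d1 had 161.1, 110.0, 108.1 and 63.5 CPM in BHLKO replicates 2, 3, 4 and 5, against 77.6, 101.2, 91.3 and 111.8 CPM in Alb-Cre replicates 1, 2, 4 and 5. BHLKO held both the highest and the lowest of the 8 libraries, and the Alb-Cre values lay between them. The log2 fold change was 0.21 ± 0.27 (SE; edgeR adjusted p = 0.751), and its 95% interval of −0.41 to 0.84 reaches from 0.751-fold to 1.79-fold. The estimate turned on single libraries: it was −0.02 without BHLKO replicate 2 and 0.41 without BHLKO replicate 5.

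Nr1d2 had 7.82, 7.57, 5.97 and 4.08 CPM in BHLKO replicates 2, 3, 4 and 5, against 4.09, 4.63, 5.49 and 7.81 CPM in Alb-Cre replicates 1, 2, 4 and 5. The highest library of each group was almost equal, as was the lowest (log2 fold change 0.20 ± 0.28; edgeR adjusted p = 0.776). BHLKO replicate 2 was highest and BHLKO replicate 5 lowest for both REV-ERB genes, and among Alb-Cre libraries replicate 5 was highest and replicate 1 lowest for both.

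Nr1d1 is transcribed towards Thra, the thyroid hormone receptor alpha gene on the opposite strand, and their annotated exons share 263 bp, or 8.55% of the Nr1d1 exons. Whether counting used strand is not given in the sources used here, so reads in that stretch may have been dropped or assigned to either gene. Thra had 129.1, 136.4, 135.5 and 119.7 CPM in BHLKO, against 166.5, 168.8, 143.0 and 135.3 CPM in Alb-Cre (edgeR adjusted p = 0.228). The lowest Thra library was BHLKO replicate 5, as for Nr1d1, but the group means of Thra and Nr1d1 lay in opposite order.

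Rora (chromosome 9, 68653786 to 69388246, plus strand), which encodes the activator at ROR response elements and is also expressed in innate lymphoid cells, was the least abundant, with 18 to 47 counts per library. It had 3.1, 3.18, 2.26 and 3.74 CPM in BHLKO, against 3.49, 3.32, 1.54 and 1.99 CPM in Alb-Cre, in the same order of replicates. The log2 fold change of 0.26 ± 0.37 had the widest 95% interval of the 8 genes, from −0.51 to 1.04 (edgeR adjusted p = 0.775). The interval reaches 2.06-fold.

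Among the PAR bZIP genes and their antagonist, Dbp (chromosome 7, 45705088 to 45710203, plus strand), Tef (chromosome 15, 81802421 to 81826863, plus strand) and Nfil3 (chromosome 13, 52967209 to 52981073, minus strand) are shown by promoter, since the library lowest for Dbp and Tef was the highest for Nfil3. The windows are chr7:45704997-45705296, chr15:81802423-81802722 (the first of 2 Tef starts) and chr13:52980990-52981289 of GRCm38.p6. In capitals are the E box CACGTG of Tef, 121 bases before the start, and AGGTCA in Nfil3, read as TGACCT on this strand 6 bases before the start. The Dbp window held none of the searched letters, and sequence outside the windows was not searched.
Dbp: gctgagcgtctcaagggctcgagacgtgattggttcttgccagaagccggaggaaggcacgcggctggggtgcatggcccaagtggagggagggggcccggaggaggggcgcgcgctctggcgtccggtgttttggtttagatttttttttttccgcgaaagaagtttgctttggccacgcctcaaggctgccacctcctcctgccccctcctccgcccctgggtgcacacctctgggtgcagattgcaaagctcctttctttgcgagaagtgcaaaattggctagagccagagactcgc
Tef: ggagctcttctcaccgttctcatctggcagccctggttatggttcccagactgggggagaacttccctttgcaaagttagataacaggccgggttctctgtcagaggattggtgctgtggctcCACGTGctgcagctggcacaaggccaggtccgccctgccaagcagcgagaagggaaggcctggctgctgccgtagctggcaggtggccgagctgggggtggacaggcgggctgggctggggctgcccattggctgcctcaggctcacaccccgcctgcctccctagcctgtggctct
Nfil3: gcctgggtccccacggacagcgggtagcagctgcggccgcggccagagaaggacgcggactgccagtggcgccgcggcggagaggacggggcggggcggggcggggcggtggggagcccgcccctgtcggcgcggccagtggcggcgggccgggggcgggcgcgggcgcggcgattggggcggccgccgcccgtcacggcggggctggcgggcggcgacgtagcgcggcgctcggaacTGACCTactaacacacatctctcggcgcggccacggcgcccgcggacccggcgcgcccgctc
The other Tef start held CACGTG too, 132 bases upstream, and the Hlf window held no match.

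Dbp had 103.6, 96.9, 93.5 and 59.1 CPM in BHLKO replicates 2, 3, 4 and 5, against 103.4, 107.3, 91.6 and 97.0 CPM in Alb-Cre replicates 1, 2, 4 and 5. BHLKO replicates 2 to 4 lay within the Alb-Cre range, and replicate 5 lay well below it. The log2 fold change was −0.18 ± 0.14 (edgeR adjusted p = 0.591) and −0.02 without BHLKO replicate 5. The exons of Dbp share 539 bp, or 18% of their length, with Sphk2 on the opposite strand, a sphingosine kinase gene, and the same limit on strand holds. Sphk2 averaged 115.6 ± 9.02 CPM in BHLKO and 110.4 ± 8.10 CPM in Alb-Cre (SD, n = 4 each), with its highest value in BHLKO replicate 5, the library lowest for Dbp.

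Tef had 271.3, 237.5, 325.3 and 214.6 CPM in BHLKO, against 300.0, 335.1, 286.4 and 300.1 CPM in Alb-Cre. In BHLKO 3 libraries were below every Alb-Cre library and replicate 4 was within their range. The log2 fold change of −0.22 ± 0.12 had a 95% interval of −0.46 to 0.02 (edgeR adjusted p = 0.369), so a level under 0.725-fold of Alb-Cre lay outside it. An antisense model, Gm17597, shares 193 bp with Tef exons and had at most 13 counts in any library.

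Hlf (chromosome 11, 90336536 to 90390895, minus strand), the third PAR bZIP gene, was the closest to equal. It had 17.0, 23.2, 22.0 and 22.5 CPM in BHLKO, against 17.5, 25.7, 22.7 and 18.9 CPM in Alb-Cre. Its log2 fold change was 0.00 ± 0.16, with a 95% interval of 0.794-fold to 1.27-fold (edgeR adjusted p = 0.991). BHLKO replicate 5, low for Dbp and Tef, was in the middle of the range for Hlf.

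Nfil3, the repressor at D boxes and a factor that natural killer cells need for their development, had 6.85, 9.29, 9.99 and 10.8 CPM in BHLKO replicates 2, 3, 4 and 5, against 6.62, 4.77, 6.26 and 9.34 CPM in Alb-Cre replicates 1, 2, 4 and 5. Every BHLKO library was above 3 of the Alb-Cre libraries, and Alb-Cre replicate 5 reached into the BHLKO range. The log2 fold change was 0.43 ± 0.24 (95% interval −0.07 to 0.94; edgeR adjusted p = 0.392). The summed level of 8 T and NK cell markers was 35.5 to 67.7 CPM in BHLKO and 72.1 to 144.1 CPM in Alb-Cre, in the direction opposite to the Nfil3 means. All 8 of these markers were below 0 in log2 fold change. By edgeR 3 fell (Cd3d, Cd4 and Cd8a) and 5 did not pass, while DESeq2 called 5 and limma-voom called 1. The Cd3d and Cd4 calls were lost without BHLKO replicate 4 or Alb-Cre replicate 1 or 4, with adjusted p-values up to 0.0742 for Cd3d and 0.0615 for Cd4. The 4 B cell markers summed to 10.2 to 24.8 CPM in BHLKO and 33.7 to 125.2 CPM in Alb-Cre. All 4 were below 0 in log2 fold change, edgeR called Cd22 alone (log2 −1.50 ± 0.34; adjusted p = 0.0474), and DESeq2 called 4. Cd22 did not pass without any 1 of BHLKO replicates 2, 3 and 4 or of Alb-Cre replicates 1, 2 and 4 (adjusted p up to 0.128). The 3 group 2 innate lymphoid markers listed in the table overlapped in sum, at 41.3 to 54.1 CPM in BHLKO and 37.2 to 53.5 CPM in Alb-Cre. Of them 1, Areg, an epidermal growth factor receptor ligand, rose (log2 1.24 ± 0.25; edgeR adjusted p = 0.0177). The other 2, Il1rl1 (log2 −0.70 ± 0.60) and Gata3 (log2 −0.30 ± 0.14), were below 0 and did not pass. The Areg call was lost without BHLKO replicate 2 or 5 or Alb-Cre replicate 1, 2 or 4 (adjusted p up to 0.0719). The part of these 3 marker lists in the values of Nfil3 and Rora was not tested.

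The number of Dbp reads per Nfil3 read, an activator against a repressor of the same element, was 15.1, 10.4, 9.36 and 5.47 in BHLKO, against 15.6, 22.5, 14.6 and 10.4 in Alb-Cre. The means were 10.1 ± 3.97 in BHLKO and 15.8 ± 5.02 in Alb-Cre (SD, n = 4 each), and the groups overlapped. This ratio and that of Nr1d1 to Arntl were chosen after the values were seen and were not tested.

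Bhlhe40 (chromosome 6, 108660629 to 108666925, plus strand), which encodes the E-box repressor DEC1 and is inducible by hypoxia through HIF1A in cultured cells, came closest to the threshold. It had 49.6, 48.8, 44.2 and 65.3 CPM in BHLKO replicates 2, 3, 4 and 5, against 49.6, 34.7, 29.4 and 39.7 CPM in Alb-Cre replicates 1, 2, 4 and 5. Alb-Cre replicate 1 lay within the BHLKO range, and the other 3 Alb-Cre libraries were below all BHLKO libraries. The fold difference was 1.35 with a 95% interval, not adjusted for the number of genes tested, of 1.07 to 1.71 (log2 0.43 ± 0.16). The edgeR adjusted p was 0.180, the DESeq2 adjusted p 0.148 and the limma-voom adjusted p 0.202. Leaving out 1 library at a time gave log2 fold changes from 0.31 (without BHLKO replicate 5) to 0.58 (without Alb-Cre replicate 1), with a smallest adjusted p of 0.0911.

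**Figure D3:**
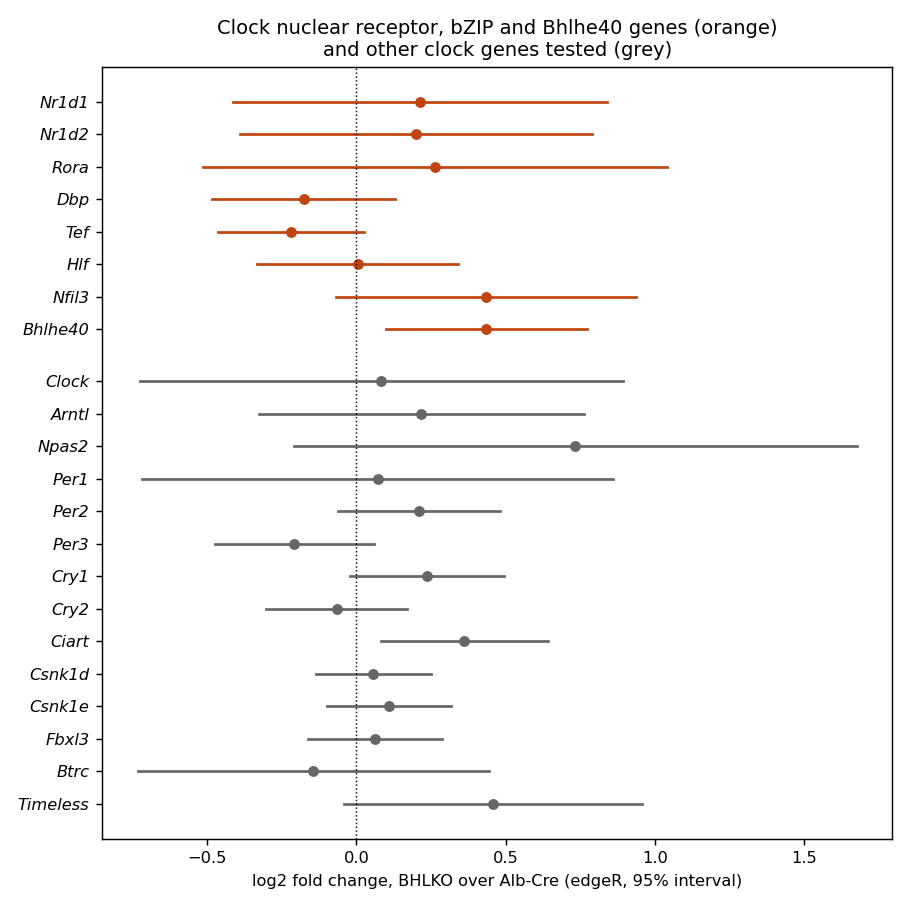
The log2 fold change of BHLKO over Alb-Cre (x axis; points) with its 95% interval (lines, not adjusted for the number of genes) for the 8 genes in orange and other core clock genes in grey. No gene shown passed the adjusted threshold, and only the intervals of Bhlhe40 (0.10 to 0.77) and Ciart (0.08 to 0.64) leave out 0.

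In BHLKO replicate 5, Nr1d1, Nr1d2, Dbp and Tef were at their lowest of all 8 libraries. Nr1d2 was almost equal in Alb-Cre replicate 1 (4.09 CPM, against 4.08 CPM in BHLKO replicate 5). Rora, Nfil3, Bhlhe40 and the activators Arntl and Npas2 were at their highest in BHLKO replicate 5. On the log2(CPM + 0.5) scale relative to each gene's mean, Nr1d1 and Dbp were at −0.65 and −0.64 in that library and Arntl and Npas2 at 0.66 and 0.83. Hlf, at 0.10, and Clock, another activator gene, at −0.0055, were with neither side. Clock was highest in BHLKO replicate 2 (0.66), as was Nr1d1 (0.69). The same division was not seen in every library: Nfil3 and Nr1d2 were both above their means in BHLKO replicate 3 (0.25 and 0.37) and both below them in Alb-Cre replicate 2 (−0.65 and −0.29). The number of Nr1d1 reads per Arntl read was 28.7, 14.5, 17.8 and 5.69 in BHLKO replicates 2, 3, 4 and 5, against 12.9, 17.1, 10.6 and 19.9 in Alb-Cre replicates 1, 2, 4 and 5. The BHLKO libraries included the highest and the lowest of these ratios, and the group means were 16.7 ± 9.48 in BHLKO and 15.1 ± 4.14 in Alb-Cre (SD, n = 4 each). BHLKO replicate 5 also had the highest summed level of the 4 hepatocyte markers (107 CPM, against 1.14 to 11.6 CPM in the other BHLKO libraries). In Alb-Cre this sum was 57.7 CPM in replicate 5 and 3.04 to 4.83 CPM in the other libraries. BHLKO replicate 5 was highest for the 4 cardiac muscle markers too (3140 CPM, against 1082 to 2189 CPM in the other BHLKO libraries and 643.9 to 1400 CPM in Alb-Cre). The 4 fibroblast and smooth muscle markers were also highest in BHLKO replicate 5 (461 CPM). Their sums were 362 to 395 CPM in the other BHLKO libraries and 278 to 334 CPM in Alb-Cre. Within BHLKO this library was highest for the 4 adipocyte markers as well (203 CPM), below Alb-Cre replicates 1 (511 CPM) and 4 (340 CPM). It was the lowest of all 8 libraries for the T and NK cell markers (35.5 CPM) and the B cell markers (10.2 CPM). The part of these markers in the clock gene values was not tested.

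**Figure D4:**
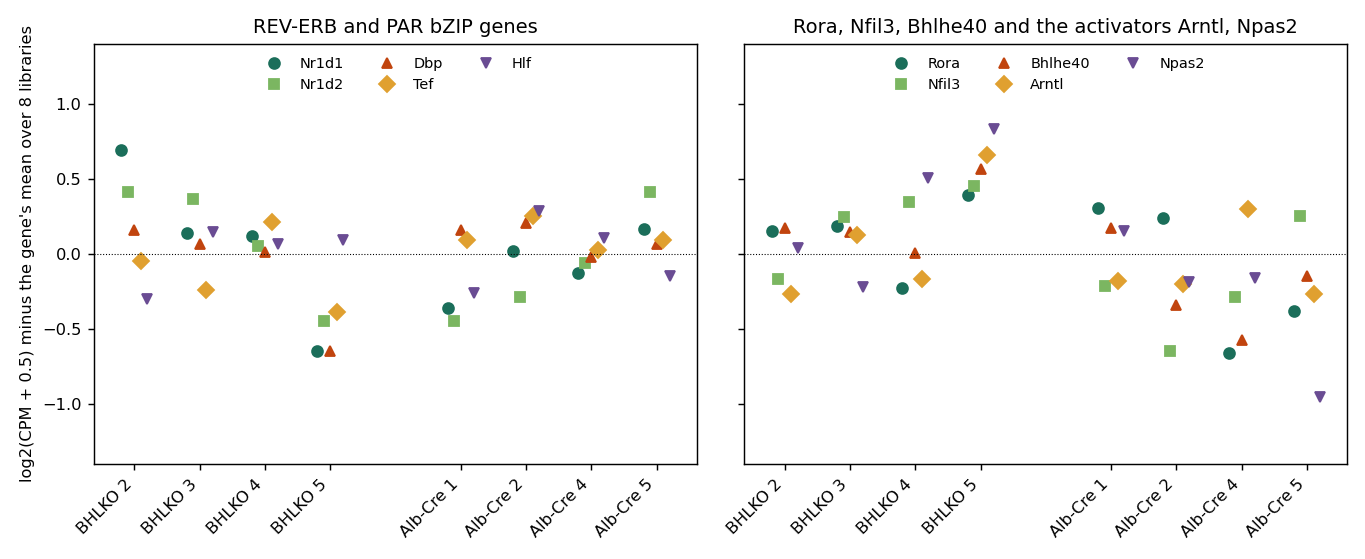
Level of each gene in each library as log2(CPM + 0.5) minus the gene's mean over 8 libraries (y axis), BHLKO libraries left and Alb-Cre libraries right in each panel. In BHLKO replicate 5, Nr1d1 (−0.65), Dbp (−0.64), Nr1d2 (−0.45) and Tef (−0.39) are low while Arntl (0.66), Npas2 (0.83), Bhlhe40 (0.56) and Nfil3 (0.46) are high.

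The spread within groups differed from gene to gene. The ratio of the highest to the lowest library was larger in BHLKO for 4 of 8 genes, and for 49.4% of all tested genes with at least 1 CPM on average and no library at 0. It was 2.54 in BHLKO and 1.44 in Alb-Cre for Nr1d1 and 1.75 and 1.17 for Dbp in the same order. For Rora it was 1.65 in BHLKO and 2.26 in Alb-Cre, and for Nfil3 1.58 in BHLKO and 1.96 in Alb-Cre.

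Likeness of profile was measured as the mean absolute difference, over the 8 libraries, between the relative log2 levels of a pair of genes, among 13248 genes with at least 1 CPM on average. Nearest to Nr1d1 were Tmem40 (0.11), Rprm (0.14) and Ndst2 (0.14). Nr1d2 ranked 40th (0.18) and Dbp 111th (0.20), where a gene with no change between libraries would score 0.28. Nearest to Dbp were Gzf1 (0.08), Atic, an enzyme of purine synthesis (0.08), and Tor2a (0.09), and the clock gene Per3 ranked 91st (0.13) and Tef 298th (0.14), where a gene with no change would score 0.17. Arntl was far from both, at rank 10903 for Nr1d1 and 11051 for Dbp.

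Of 18 core clock genes 15 were tested, 0 rose, 0 fell and 15 did not pass (median log2 fold change 0.11). By unadjusted edgeR p under 0.05 there was 1, Ciart, a repressor of CLOCK and BMAL1, and DESeq2 and limma-voom called 0. Ciart was at 30.4, 27.4, 31.0 and 27.5 CPM in BHLKO, against 18.5, 24.1, 23.3 and 24.6 CPM in Alb-Cre, without overlap (1.28-fold; edgeR adjusted p = 0.178). Timeless, second by p, averaged 23.9 ± 5.96 CPM in BHLKO and 17.6 ± 5.93 CPM in Alb-Cre (SD, n = 4 each; edgeR adjusted p = 0.357).

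Of 12 clock output genes, including targets described in liver for PAR bZIP factors, 11 were tested, 1 rose, 0 fell and 10 did not pass (median 0.11; 3 at an unadjusted edgeR p under 0.05). The gene that rose was Alas1, the first enzyme of heme synthesis; heme, the end product of that pathway, is the ligand of REV-ERB proteins. It had 379.6, 408.7, 374.4 and 421.7 CPM in BHLKO, against 219.2, 253.1, 288.3 and 304.4 CPM in Alb-Cre, a 1.49-fold difference without overlap (edgeR adjusted p = 0.00815). Pdxk, the pyridoxal kinase gene, averaged 92.1 ± 2.16 CPM in BHLKO and 113.7 ± 13.6 CPM in Alb-Cre (SD, n = 4 each; log2 −0.30 ± 0.10; edgeR adjusted p = 0.116), without overlap. Marchf2 had a log2 fold change of 0.21 ± 0.09 (edgeR adjusted p = 0.245).

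All 6 corepressor genes that REV-ERB proteins act through were tested and 0 rose or fell by edgeR (median −0.15; 1 at an unadjusted p under 0.05). DESeq2 called Gps2, which averaged 111.4 ± 7.75 CPM in BHLKO and 137.1 ± 7.51 CPM in Alb-Cre (SD, n = 4 each; edgeR adjusted p = 0.0909; DESeq2 adjusted p = 0.0217), and limma-voom called 0. Ncor1 was next, with a log2 fold change of 0.15 ± 0.10. Of 4 C/EBP genes, bZIP factors related to the PAR family, 0 passed by edgeR, DESeq2 or limma-voom (median 0.20), with Cebpd at log2 0.63 ± 0.25 (edgeR adjusted p = 0.228; unadjusted p = 0.0255, the only such gene of the list) and Cebpb at 0.25 ± 0.12.

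Beside Bhlhe40, 13 other hypoxia-inducible genes were tested, of which 1 rose, 0 fell and 12 did not pass (median 0.03; 1 at an unadjusted edgeR p under 0.05). P4ha1, a collagen prolyl hydroxylase subunit, had 32.2, 31.6, 35.0 and 40.5 CPM in BHLKO, against 10.3, 12.1, 11.0 and 23.2 CPM in Alb-Cre, a 2.44-fold difference without overlap (edgeR adjusted p = 0.0125). Its adjusted p was 0.0540 without Alb-Cre replicate 2. Ddit4 and Egln1 followed, with log2 fold changes of 0.39 ± 0.21 and 0.17 ± 0.11.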

How the data were processed

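Read counts per gene in 4 BHLKO and 4 Alb-Cre lung libraries were analysed. The authors deposited whole-number counts, per the file headers, and a normalized signal that equals each library's counts divided by 1 constant; the deposited signal was not tested. The submitters' processing notes name mm10 as build and list DESeq2, HTSeq, cutadapt and STAR 2.5.2b; no annotation, strand setting or rule for multiply mapped reads is given in the sources used here. The test was edgeR 4.0.16 (R 4.3.3) with TMM scaling (filterByExpr, robust quasi-likelihood F test, Benjamini-Hochberg adjustment over 13517 genes holding 99.9% of counts; p-values from this model unless another is named). CPM uses TMM-scaled library sizes. SE comes from the fold change and F statistic, and intervals use its t quantile. DESeq2 1.42.0 and limma 3.58.1 served as alternatives, and the edgeR script was tested on simulated data. The genes, lists and naming rule (list members called, plus the 2 next by p; the 3 nearest profiles of Nr1d1 and Dbp) were chosen with earlier results of these data known. Positions are from GENCODE M21 and promoters from RefSeq. The counts of core clock genes include 1 gene that is not reported here.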

Additional observations from a re-analysis of the deposited data

Results flagged for a closer look

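In groups of 4, a library is listed here when the gap to the nearest of the others, as a share of the group's range, exceeds Dixon's 95% critical value, which chance gives for about 1 in 20 groups; 62 groups were examined and 4 met it, of which 0 belong to the 8 measured genes. Arntl was at 8.58 CPM in Alb-Cre replicate 4 and at 5.63 to 6.02 CPM in the other Alb-Cre libraries. P4ha1 was at 23.2 CPM in Alb-Cre replicate 5 and at 10.3 to 12.1 CPM in the others of its group. Cebpb was at 464.6 CPM in the same library and at 311.0 to 332.0 CPM in the others. Ddit4 was at 18.5 CPM in BHLKO replicate 4 and at 35.1 to 36.1 CPM in the other BHLKO libraries.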

How the results depend on the processing

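The count of 0 of 8 genes held under 15 of 16 alternatives (scaling, filters, tests, an adjusted p threshold of 0.1, and each library left out), and the count of 0 core clock genes under all 16. The exception was the replicate block: with replicate numbers as a block 1 gene, Bhlhe40, passed (log2 0.61, adjusted p = 0.0482) and 160 of all genes, and Alas1 no longer did (adjusted p = 0.0674). Number 1 occurs only in Alb-Cre and number 3 only in BHLKO, so these libraries add nothing to the group contrast with the block. With no block and only Alb-Cre replicate 1 left out, the log2 fold change was 0.58 for Bhlhe40 and 0.49 for Alas1. The labels do not say whether the 3 shared numbers pair the libraries. Deviations of same-numbered libraries correlated by 0.0373, −0.016 and 0.0209, and those of differently numbered ones by −0.137 to 0.103. Correlations over all genes cannot decide this, and a batch shared by number was not tested. The number of all genes called was 306, 692 with DESeq2 and 579 at an adjusted p under 0.1. It was 131, 156, 195 and 520 without Alb-Cre replicates 1, 4, 2 and 5, and 167, 188 and 177 without BHLKO replicates 2, 4 and 5. The sign of small differences turned for Nr1d2 with the block (−0.035) and for Hlf with library totals alone (−0.0056) and the block (−0.13). With libraries left out in turn, log2 fold changes ran from −0.023 to 0.41 for Nr1d1, −0.079 to 0.10 for Hlf, −0.026 to 0.38 for Arntl and −0.013 to 0.15 for Hif1a. Without Alb-Cre replicate 5, Cebpb passed (adjusted p = 0.0252). The cause of these shifts was not tested. For the called cell type markers the alternatives were chosen after seeing the data, and Nkx2-1 passed under all of them. With the block Cd3d (adjusted p = 0.128), Cd4 (0.0850), Cd8a (0.0618), Areg (0.129) and Pdgfra (0.0743) did not pass. With limma-voom Cd3d (0.0637), Cd4 (0.0539) and Areg (0.0699) did not pass, nor did Cd22 with no filter (0.0572). Rora was read at 18 to 47 counts per library, and with 4 libraries a group the upper ends of the 95% intervals are 1.71-fold for Bhlhe40, 1.73-fold for Nr1d2, 1.79-fold for Nr1d1, 1.91-fold for Nfil3 and 2.06-fold for Rora.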
